A study of Homo sapiens with 6 samples.

Results

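The genes described here encode the machinery of autophagy and its cargo receptors. A list of 46 gene symbols was looked up among the 28395 genes of the deposited table, and all 46 were found. The cells were HCC827, an established human lung adenocarcinoma line with an activating EGFR mutation. The 2 groups were HCC827 cells given DMSO, the solvent control, and HCC827 cells given 1 µM erlotinib, a kinase inhibitor of EGFR, each for 24 h and each with 3 libraries. Polyadenylated RNA was sequenced to ask how the transcriptome of these cells responds when EGFR is inhibited. All 6 libraries came from 1 cell line at 1 dose and 1 time.

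Autophagy is the process in which a cell wraps cytoplasm, damaged organelles or protein aggregates in a double membrane, the autophagosome, and delivers them to the lysosome for breakdown. The ULK1 kinase complex starts the process, a class III PI3-kinase complex marks the site with the lipid PI3P, and lipid carriers and scramblases feed the growing membrane. Ubiquitin-like reactions then couple small proteins of the ATG8 family, the LC3 and GABARAP proteins, to membrane lipid, where receptors such as p62 bring the cargo. Signalling through mTORC1 holds the pathway down while growth factors and nutrients are plentiful. Much of this control acts on proteins. Transcript levels report neither the lipidation of LC3 nor the flux of cargo, and neither was measured here.

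The libraries held 20858083, 24641819 and 21172884 reads assigned to genes in the DMSO group and 21944007, 20760204 and 21678395 in the erlotinib group. The columns of the erlotinib group are numbered 4 to 6, and those numbers are kept here. Values are given as signal, which is the number of reads divided by 1 size factor for each library. Of the 28395 genes, 14215 had a mean signal of at least 10 and were tested with limma on log2(signal + 1), with p-values adjusted over all of them by Benjamini-Hochberg. Nothing in the labels says whether the 3 libraries of a group came from separate cultures, so p-values rest on the spread between these libraries, which may be technical. limma draws the spread of each gene towards a trend with mean signal over all genes tested. Its p-values and standard errors (SE) come from that moderated spread. DMSO library 2 stood somewhat apart from its group. The chi-square per degree of freedom between replicate counts was 24.4 and 15.3 for the pairs with that library, against 7.99 for the other DMSO pair and 4.14 to 6.10 within the erlotinib group.

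The marker genes fitted an epithelial line. The 6 epithelial markers, EPCAM, CDH1, KRT8, KRT18, KRT19 and EGFR, summed to a signal of 222228 to 237586 in the DMSO libraries and 152092 to 159147 in the erlotinib libraries, and 4 of the 6 were lower with erlotinib. EGFR was the most abundant, with a mean signal of 62592 over the 6 libraries. Of the 5 leukocyte markers, PTPRC, CD3E and LYZ had at most 10 reads in every library, and the list's sum, 2782 to 3164 in DMSO and 3217 to 3534 in erlotinib, was almost entirely CD68, a lysosomal membrane protein that other cells carry too. The 5 fibroblast markers summed to 71.5 to 107 and 215 to 259, mostly COL1A1, while COL1A2, DCN and PDGFRB had at most 10 reads in every library. The 4 endothelial markers summed to 15.8 to 34.0 and 45.9 to 58.1. PECAM1 had the highest signal of them in every DMSO library and VWF in every erlotinib library. KDR had at most 10 reads in every library. The sums of the leukocyte, fibroblast and endothelial lists were higher in every erlotinib library than in any DMSO library, and their part in the results was not tested.

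Of the 46 autophagy genes, 45 passed the filter on low values. With erlotinib 24 of them were higher and 11 lower, and 10 did not pass the threshold of 0.05. Changes were common in the whole transcriptome, since 70.7% of all genes tested passed in either direction, so the 77.8% of autophagy genes that passed are close to that background. Higher signal was found for 53.3% of the 45, beside 35.3% of all genes tested, and lower signal for 24.4%, beside 35.4% of all genes tested. The rise reached at least 1 log2 unit for 10 members, or 22.2%, beside 17.0% of all genes tested, and the fall reached that size for 2 members, or 4.44%, beside 10.8%. The median log2 fold change was 0.26 over the members and 0.017 over all genes tested. No overlap between the groups was found for 37 of the 45, or 82.2%, beside 73.6% of all genes tested. These are descriptions of the list, which was chosen with earlier results of these data known, and no test of it was made. Without DMSO library 2, 24 members were higher and 10 lower.

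Together the members took 0.252%, 0.269% and 0.257% of all signal in the DMSO libraries. The share was 0.417%, 0.401% and 0.410% in the erlotinib libraries, so each of these held more than every DMSO library. The members' signal itself was 59566, 61458 and 58310 in DMSO and 84372, 82381 and 83165 in erlotinib. All signal was lower in erlotinib, at 2.03e+07 to 2.06e+07, beside 2.27e+07 to 2.37e+07 in DMSO, which also raises the share. The sum weighs abundant genes most. SQSTM1 alone went from a mean of 7312 to 14297, and 11 of the 45 members tested were lower. In bulk RNA, more cells with a transcript and more transcript per cell cannot be told apart. Signal is also relative to the library. When libraries were scaled to their total counts instead, the median log2 fold change of all genes tested moved to 0.19 and that of the members to 0.44, with 28 members higher and 8 lower. All genes tested then split into 6156 higher and 3955 lower, against 5012 and 5031 with the deposited size factors.

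**Figure D1:**
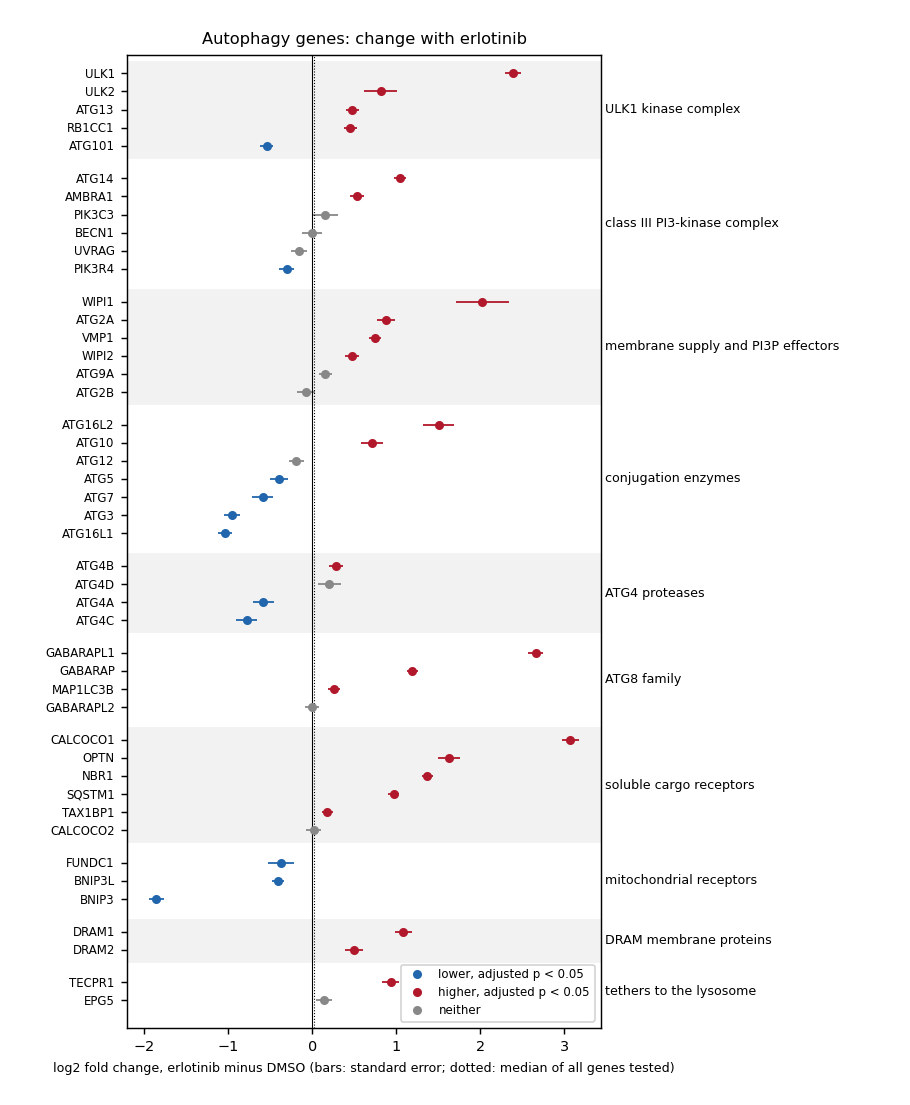
Log2 fold change (erlotinib minus DMSO, on log2(signal + 1)) of the 45 autophagy genes tested, grouped by role. Bars show limma's moderated standard error with 3 libraries a group, and a dotted line the median of all genes tested. CALCOCO1 and GABARAPL1 lie farthest to the right, at 3.07 and 2.66, and BNIP3 farthest to the left, at -1.86.

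Of the 5 genes of the ULK1 kinase complex, 4 were higher with erlotinib, beside 35.3% of all genes tested, and ATG101 was lower, beside 35.4%. ULK1, the kinase that starts autophagosome formation (Entrez gene 8408, chr12:131894622-131923150), had a signal of 678, 524 and 546 in the DMSO libraries and 3162, 2875 and 3090.0 in the erlotinib libraries. Every erlotinib library lay far above every DMSO library, a 5.22-fold rise of the mean (log2 fold change 2.39, SE 0.09, limma adjusted p = 5.5e-15). Its paralogue ULK2 had 108, 79.9 and 73.9 in DMSO and 151, 156 and 148 in erlotinib. Both kinases thus rose without overlap between the groups, ULK2 by less (log2 fold change 0.81, SE 0.19, limma adjusted p = 0.0009).

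ATG13, the adaptor that links the kinase to its partners, and RB1CC1, the scaffold also called FIP200, rose by 0.48 and 0.45 log2 units. Their limma adjusted p-values were 2.2e-05 and 4.2e-05. ATG101, which binds and stabilizes ATG13, went the other way. It fell from 2455, 2181 and 2163 in the DMSO libraries to 1444, 1558 and 1663 in the erlotinib libraries, with no overlap (log2 fold change -0.54, SE 0.08, limma adjusted p = 3.6e-06).

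In the class III PI3-kinase complex, 2 of 6 genes rose, 1 fell and 3 did not pass. The 33.3% higher are close to the 35.3% of all genes tested, and 16.7% were lower, beside 35.4%. ATG14, the subunit that directs the complex to autophagy (Entrez gene 22863, chr14:55366391-55411830), had a signal of 1007, 1076 and 1031 in DMSO and 2264, 2109 and 2060.3 in erlotinib. The erlotinib mean was 2.07-fold the DMSO mean (log2 fold change 1.05, SE 0.08, limma adjusted p = 1.3e-10). UVRAG, which replaces ATG14 in the form of the complex that works on endosomes, had a log2 difference of -0.16 (limma adjusted p = 0.15). About 20.8% of the exonic length of ATG14 is shared with the neighbouring gene FBXO34, and strand was not stated, so reads of the 2 genes there cannot be told apart. The mean signal was 2617 for FBXO34 against 1591 for ATG14.

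AMBRA1, a scaffold that binds beclin 1, had 1157, 998 and 1042 in DMSO and 1513, 1499.8 and 1616 in erlotinib, and all 3 erlotinib libraries were higher (log2 fold change 0.54, SE 0.08, limma adjusted p = 7.1e-06). PIK3R4, the regulatory subunit also called VPS15, fell (log2 fold change -0.31, SE 0.09, limma adjusted p = 0.0037), a call that ended when libraries were scaled to their total counts (log2 fold change -0.13, limma adjusted p = 0.22). For 2 other core subunits no difference was detected. BECN1, which encodes beclin 1, had 465, 445 and 426 in DMSO and 411, 411 and 522 in erlotinib, with overlapping groups and a mean that differed by less than the SD (limma adjusted p = 0.9997). PIK3C3, the lipid kinase itself, overlapped between the groups as well (log2 fold change 0.15, SE 0.16, limma adjusted p = 0.38).

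Among the members, genes for membrane supply and for reading PI3P were higher or did not pass. Of 6, 4 rose, or 66.7%, and none fell, while 35.3% of all genes tested were higher and 35.4% lower. In the further lists described below, WDR45 and ATG9B rose. WDR45B and TMEM41B of those lists fell, with log2 fold changes of -0.64 and -0.26 (limma adjusted p = 4.6e-08 and 0.013). WIPI1, a protein that binds PI3P on the forming autophagosome (Entrez gene 55062, chr17:68421281-68457496), had 19.3, 37.1 and 24.6 in DMSO and 126, 71.3 and 145 in erlotinib. Every erlotinib library was above every DMSO library, erlotinib library 5 by the least, and the standard error was the largest among the members (log2 fold change 2.02, SE 0.31, limma adjusted p = 7.2e-06). Part of the WIPI1 exons, 24.4% of their length, is shared with ARSG, whose mean signal was 62.9, against 70.5 for WIPI1. WIPI2, a relative of WIPI1 which recruits ATG16L1, had 2431, 1964 and 2259 in DMSO and 3055, 3161 and 2988 in erlotinib and rose less (log2 fold change 0.47, SE 0.08, limma adjusted p = 1.7e-05).

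VMP1, a lipid scramblase of the endoplasmic reticulum that autophagosome formation needs, rose from 2859 ± 178 in DMSO to 4813 ± 344 in erlotinib (SD, n = 3) on average (log2 fold change 0.75, SE 0.07, limma adjusted p = 9.1e-09). The lipid transfer proteins ATG2A and ATG2B, which bridge the endoplasmic reticulum and the new membrane, separated. ATG2A had 813, 611 and 887 in DMSO and 1366, 1477 and 1369 in erlotinib, with every erlotinib library higher (log2 fold change 0.88, SE 0.11, limma adjusted p = 3.8e-07). ATG2B had 824, 1082 and 840.2 in DMSO and 863, 764 and 966 in erlotinib, which overlapped (log2 fold change -0.078, SE 0.11, limma adjusted p = 0.54). ATG9A, the scramblase carried on small vesicles to the site, did not pass (log2 fold change 0.15, SE 0.08, limma adjusted p = 0.088).

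**Figure D2:**
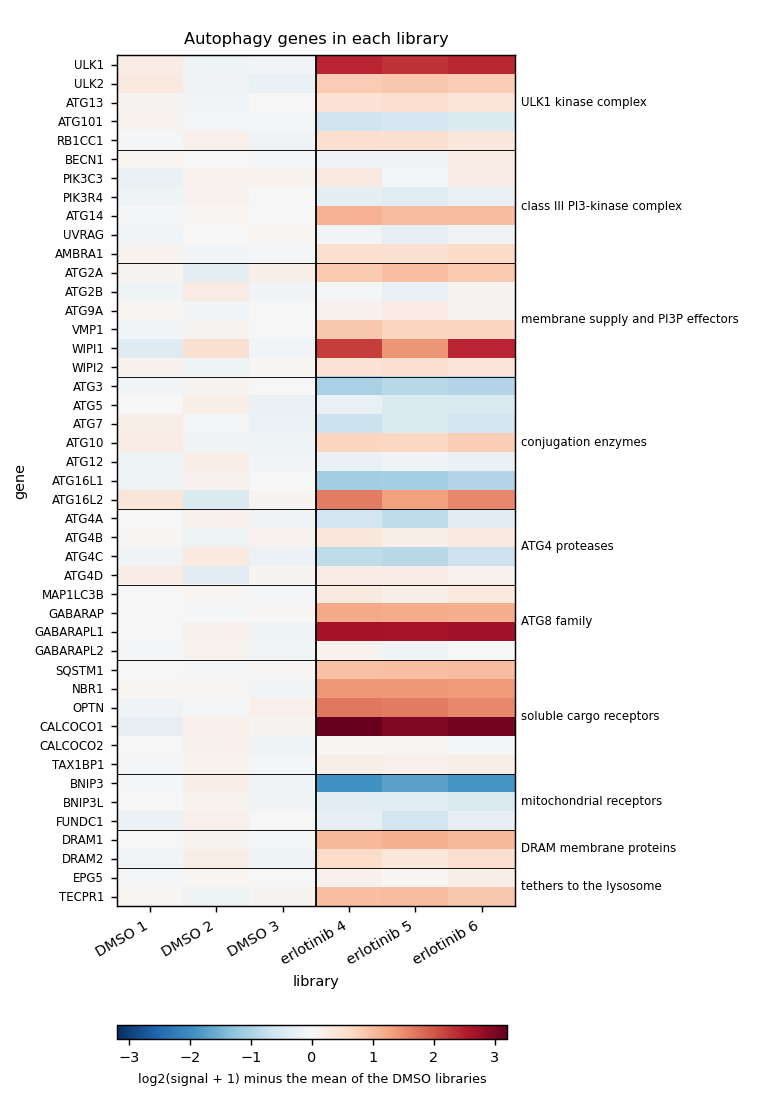
Signal of the 45 autophagy genes tested in each of the 6 libraries, as log2(signal + 1) minus the mean of the DMSO libraries, in rows grouped by role and columns for DMSO 1 to 3 and erlotinib 4 to 6. Rows such as CALCOCO1, GABARAPL1 and ULK1 are dark red in all 3 erlotinib libraries, and WIPI1 is paler in erlotinib library 5, where its signal was 71.3.

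Of the 7 conjugation enzymes, 4 fell, 2 rose and 1 did not pass, beside 35.4% of all genes tested lower and 35.3% higher. Their median log2 fold change was -0.40. ATG16L1, the subunit that fixes where LC3 is attached (Entrez gene 55054, chr2:233251673-233295669), had 2169, 2624 and 2389 in DMSO and 1099, 1145 and 1251 in erlotinib. Its mean fell to 48.7% of that in DMSO, and the groups were far apart (log2 fold change -1.04, SE 0.08, limma adjusted p = 5.9e-10). ATG16L2, a relative with no settled role in autophagy, had 144, 79.9 and 118 in DMSO and 349, 278 and 324 in erlotinib, with all 3 erlotinib libraries higher (log2 fold change 1.50, SE 0.19, limma adjusted p = 4.3e-07).

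ATG3, the enzyme that hands LC3 to the lipid, fell in a similar way (Entrez gene 64422, chr3:112532510-112561962). It had 898, 1021 and 946 in DMSO and 462, 511 and 502 in erlotinib, no DMSO library being as low as any erlotinib library (log2 fold change -0.96, SE 0.10, limma adjusted p = 1.6e-08). ATG7, the E1-like enzyme that activates both ATG12 and LC3, fell by 0.59 on the log2 scale (SE 0.12, limma adjusted p = 0.00021), and ATG5, the partner that ATG12 is coupled to, fell by 0.40 (SE 0.10, limma adjusted p = 0.0021). The call for ATG5 ended with total-count scaling, where the log2 fold change was -0.22 and the limma adjusted p was 0.075. ATG10, the enzyme that couples ATG12 to ATG5, rose instead (log2 fold change 0.71, SE 0.13, limma adjusted p = 5.7e-05). ATG12 itself did not pass (log2 fold change -0.19, SE 0.09, limma adjusted p = 0.068).

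The ATG4 proteases trim new LC3 and GABARAP proteins so that lipid can be attached, and release them from membrane afterwards. Of the 4, 2 fell, 1 rose and 1 did not pass, so that 75% were called, beside 70.7% of all genes tested. ATG4C had 566, 756 and 538 in DMSO and 349.7, 333 and 388 in erlotinib (log2 fold change -0.78, SE 0.13, limma adjusted p = 1.3e-05). DMSO library 2 held the most, and the other DMSO libraries still lay above every erlotinib library. ATG4A had 479.9, 529 and 449.5 in DMSO and 318, 276 and 386 in erlotinib, again without overlap (log2 fold change -0.58, SE 0.13, limma adjusted p = 0.00043). ATG4B, the member with the broadest activity on LC3 and GABARAP proteins, rose slightly (log2 fold change 0.29, SE 0.08, limma adjusted p = 0.0053), and ATG4D did not pass, with a log2 difference of 0.20 (limma adjusted p = 0.19).

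The ATG8 family is the set of proteins that decorate the autophagosome. Of the 5 listed, 4 were tested and 3 rose, or 75%, beside 35.3% of all genes tested, and 1 did not pass. MAP1LC3A was listed at 0 in all 6 libraries, where the floor of 3 reads corresponds to a signal of at most 3.40. Short reads of some members are hard to assign, because the genome holds copies of them. A sequence on chromosome 9 is 91.4% identical to MAP1LC3B over 98.7% of its transcript. For GABARAP a sequence on chromosome 1 is 93% identical over 64.4%, and for FUNDC1 a sequence on chromosome 11 is 91.0% identical over 82.7%. The effect of these 3 on unique reads was not tested. The coding sequence of MAP1LC3B differs from that of MAP1LC3B2 at 2 of 375 bases, and that of GABARAPL1 from the copy GABARAPL3 at 16 of 351. The first 150 coding bases of each pair are printed to show how little separates the reads, with the bases that differ within a pair in capitals. They were read from the canonical transcripts of GENCODE on GRCh38, whose spans are chr16:87392336-87404774, plus strand, for MAP1LC3B, chr12:116559381-116576606, plus strand, for MAP1LC3B2, chr12:10212877-10223128, plus strand, for GABARAPL1, and chr15:90348844-90349197, minus strand, for GABARAPL3.
MAP1LC3B: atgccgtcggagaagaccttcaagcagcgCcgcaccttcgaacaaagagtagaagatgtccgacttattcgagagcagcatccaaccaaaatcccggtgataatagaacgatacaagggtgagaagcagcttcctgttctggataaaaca
MAP1LC3B2: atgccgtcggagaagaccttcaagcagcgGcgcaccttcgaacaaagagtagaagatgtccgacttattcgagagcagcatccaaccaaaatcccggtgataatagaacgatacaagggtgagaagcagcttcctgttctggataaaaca
GABARAPL1: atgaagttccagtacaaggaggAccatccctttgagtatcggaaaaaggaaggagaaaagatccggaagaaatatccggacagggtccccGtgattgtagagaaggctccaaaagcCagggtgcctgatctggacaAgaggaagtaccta
GABARAPL3: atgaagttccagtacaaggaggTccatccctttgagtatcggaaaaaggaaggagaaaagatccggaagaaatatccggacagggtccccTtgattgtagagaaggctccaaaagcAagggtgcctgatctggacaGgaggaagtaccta

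GABARAPL1 changed the most among the 5 listed members of the family. Its signal was 412, 449 and 368 in DMSO and 2570.0, 2527 and 2654 in erlotinib, a 6.31-fold rise in which each group was tight (log2 fold change 2.66, SE 0.09, limma adjusted p = 5.5e-16). The copy GABARAPL3 had 86.2, 100.3 and 89.9 in DMSO and 617, 597 and 673 in erlotinib, which was 20.9% to 25.4% of the GABARAPL1 signal in every library, so the share of signal listed under the copy was much the same with and without erlotinib. The pair of sequences above differs at only 4 of the 150 bases shown, and reads listed under either name may come from one gene. With the signal of both added, the log2 fold change was 2.68, in place of 2.66 for GABARAPL1 alone.

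GABARAP rose as well (Entrez gene 11337, chr17:7240008-7242449). It had 2457, 2379 and 2498 in DMSO and 5678, 5552 and 5498 in erlotinib, 2.28-fold on average and with little spread in either group (log2 fold change 1.19, SE 0.06, limma adjusted p = 9.1e-13). MAP1LC3B, which encodes the LC3B protein used as the marker of autophagosomes, rose by much less. It had 1662, 1751 and 1618 in DMSO and 2041, 1906 and 2072 in erlotinib, so the groups did not overlap although the means differed 1.20-fold (log2 fold change 0.26, SE 0.07, limma adjusted p = 0.0039). GABARAPL2, also called GATE-16, had 1607, 1784 and 1544 in DMSO and 1776, 1489.9 and 1659 in erlotinib and did not differ detectably (limma adjusted p = 0.97). Its groups overlapped, and the means, 1645 ± 124 and 1642 ± 144, differed by less than the SD of either. MAP1LC3B2, the copy of MAP1LC3B printed above, had 744, 739 and 771 in DMSO and 799, 875 and 892 in erlotinib and did not pass (log2 fold change 0.19, SE 0.09, limma adjusted p = 0.069).

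Per kilobase of canonical transcript, the order of the family changed. In DMSO the level was 1854 ± 45.7 for GABARAP, 1689 ± 127 for GABARAPL2, 781 ± 31.4 for MAP1LC3B and 217 ± 21.4 for GABARAPL1, and the libraries of the first 2 overlapped. With erlotinib it was 4228 ± 69.9 for GABARAP, 1686 ± 148 for GABARAPL2, 1372 ± 34.1 for GABARAPL1 and 934 ± 41.1 for MAP1LC3B, with no overlap between neighbours in that order. As shares of the family's signal per kilobase, GABARAPL1 went from 4.78% ± 0.338 to 16.7% ± 0.481 (SD, n = 3) and GABARAP from 40.9% ± 2.19 to 51.5% ± 1.20. GABARAPL2 went from 37.2% ± 1.69 to 20.5% ± 1.21 and MAP1LC3B from 17.2% ± 0.185 to 11.4% ± 0.296. A share falls when others rise, so these shares describe makeup. Signal listed under MAP1LC3B2, 39.2% to 47.6% of that of MAP1LC3B, is not in them, nor is that of GABARAPL3.

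**Figure D3:**
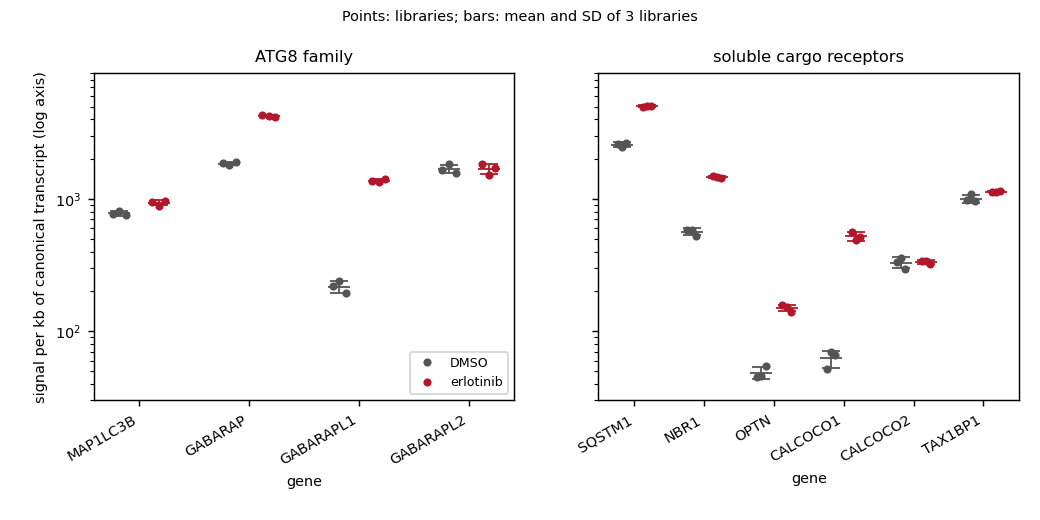
Signal per kilobase of canonical transcript (log axis) of the ATG8 family and the soluble cargo receptors, with a point for each of the 3 DMSO and 3 erlotinib libraries and bars for mean and SD. GABARAPL1 and CALCOCO1 moved up by the most, and GABARAPL2 and CALCOCO2 stayed where they were within their spread.

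The soluble cargo receptors bind ubiquitin or other marks on cargo with one end and LC3 or GABARAP proteins with the other. Of 6, 5 rose, or 83.3%, and none fell, beside 35.3% and 35.4% of all genes tested, and the median log2 fold change was 1.17. CALCOCO1, described as a receptor for endoplasmic reticulum and Golgi membrane (Entrez gene 57658, chr12:53708517-53727452), had the largest change of all 45 members. It had 289, 386 and 366 in DMSO and 3141, 2709.5 and 2896 in erlotinib, 8.40-fold on average (log2 fold change 3.07, SE 0.10, limma adjusted p = 5.5e-16). Its relative CALCOCO2, or NDP52, a receptor for bacteria and mitochondria, had 1215, 1308 and 1082 in DMSO and 1234, 1234 and 1166 in erlotinib, which overlapped (log2 fold change 0.015, SE 0.09, limma adjusted p = 0.88).

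OPTN, or optineurin, another mitophagy receptor, had 157, 161 and 189 in DMSO and 548, 534 and 491 in erlotinib, and its mean rose 3.10-fold (log2 fold change 1.63, SE 0.13, limma adjusted p = 4.2e-10). NBR1, which gathers ubiquitinated aggregates together with p62 (Entrez gene 4077, chr17:43170409-43211688), had 2706, 2689 and 2434 in DMSO and 6825, 6771 and 6647 in erlotinib, with spreads far smaller than the gap between the groups (log2 fold change 1.37, SE 0.07, limma adjusted p = 1.6e-13). SQSTM1, which encodes p62 and was the receptor with the highest level per kilobase (Entrez gene 8878, chr5:179806393-179838078), had 7413, 6979 and 7543 in DMSO and 14096, 14339 and 14458 in erlotinib. All 3 erlotinib libraries were far above the DMSO libraries, 1.96-fold on average (log2 fold change 0.97, SE 0.06, limma adjusted p = 1.2e-11). In exon length, 21.0% of SQSTM1 is shared with the neighbour MRNIP, whose mean signal was 55.4, against 10805 for SQSTM1.

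TAX1BP1, a receptor that works beside NBR1, had 3339.7, 3720.3 and 3288 in DMSO and 3894, 3839 and 3963 in erlotinib. The groups did not overlap, the size was small (log2 fold change 0.18, SE 0.07, limma adjusted p = 0.024), and the call was lost in 5 of the 6 fits that left out 1 library, with limma adjusted p-values of 0.057 to 0.095. Per kilobase, SQSTM1 took 56.1% ± 2.47 of the receptors' signal in DMSO and 58.2% ± 0.702 in erlotinib (SD, n = 3), while CALCOCO1 went from 1.36% ± 0.202 to 6.05% ± 0.443 and NBR1 from 12.3% ± 0.658 to 16.9% ± 0.269. TAX1BP1 went from 22.0% ± 1.44 to 13.2% ± 0.169. The order of the levels per kilobase in DMSO was SQSTM1 at 2575 ± 104, TAX1BP1 at 1008 ± 69.0, NBR1 at 566 ± 33.0, CALCOCO2 at 331 ± 31.2, CALCOCO1 at 62.3 ± 9.18 and OPTN at 48.5 ± 5.15, of which only the last 2 overlapped. In erlotinib NBR1, at 1463 ± 19.8, came before TAX1BP1, at 1139 ± 18.2, and CALCOCO1, at 523 ± 38.8, before CALCOCO2, at 333 ± 10.7, so both pairs had changed places.

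The 3 members grouped as mitochondrial receptors were lower, as were 35.4% of all genes tested, FUNDC1 by a call that did not hold under every alternative. Of the soluble receptors above that also serve mitochondria, OPTN rose (log2 fold change 1.63) and CALCOCO2 did not pass (log2 fold change 0.015). FKBP8 and BCL2L13, receptors of the outer mitochondrial membrane in the further lists, rose too, with log2 fold changes of 0.43 and 0.22 (limma adjusted p = 0.00036 and 0.0063). PHB2, a receptor of the inner mitochondrial membrane in the same lists, fell, with a log2 fold change of -0.42 (limma adjusted p = 7.8e-06), and all 3 were picked after their values were seen. BNIP3, a receptor in the outer mitochondrial membrane whose gene is a known target of the hypoxia factor HIF-1 (Entrez gene 664, chr10:131967684-131981923), had 3222, 3832 and 3124 in DMSO and 876, 1036 and 891 in erlotinib. Its mean fell to 27.5% of that in DMSO, the largest fall among the members (log2 fold change -1.86, SE 0.09, limma adjusted p = 1.4e-13). An intronless copy with 97.8% identity lies on chromosome 14, and its effect on the unique reads of BNIP3 was not tested. BNIP3L, or NIX, the receptor that clears mitochondria from maturing red cells, had 4403, 4728 and 4105 in DMSO and 3413, 3355 and 3190.1 in erlotinib, a smaller fall without overlap (log2 fold change -0.41, SE 0.07, limma adjusted p = 2.4e-05). FUNDC1, another receptor that responds to low oxygen, had a log2 difference of -0.37 (SE 0.15, limma adjusted p = 0.034), a call that 5 of the 15 alternatives did not keep, total-count scaling among them (limma adjusted p = 0.28).

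The remaining members act late or at the lysosome. DRAM1, a lysosomal membrane protein known as a p53 target, had 352, 377 and 342 in DMSO and 746, 781 and 747 in erlotinib, 2.12-fold higher on average and without overlap (log2 fold change 1.08, SE 0.10, limma adjusted p = 5.5e-09). DRAM2 had 593, 732 and 575 in DMSO and 944, 813 and 913 in erlotinib, also higher in all 3 erlotinib libraries (log2 fold change 0.50, SE 0.10, limma adjusted p = 0.00027). TECPR1, a protein that helps autophagosomes meet lysosomes, had 571, 490.3 and 580.1 in DMSO and 1058, 1080.0 and 988 in erlotinib, again without overlap (log2 fold change 0.93, SE 0.10, limma adjusted p = 2.5e-08). EPG5, a tether that gives fusion its specificity, overlapped between the groups (log2 fold change 0.14, SE 0.09, limma adjusted p = 0.18). Exons of DRAM2 are shared with CEPT1 over 12.6% of their length, and those of ATG7 with VGLL4 over 18.1%. ATG4D shares 14.7% with KRI1, BECN1 12.4% with CNTD1 and ATG16L2 7.98% with FCHSD2. The mean signal was 907 for CEPT1 against 762 for DRAM2, and 1649 for VGLL4 against 433 for ATG7. It was 650 for KRI1 against 388 for ATG4D, 21.6 for CNTD1, and 416 for FCHSD2 against 215 for ATG16L2. BECN1 also shares 4.68% with PSME3, whose mean signal was 7490, against 447 for BECN1.

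The ratio of related genes within a library does not depend on how the library was scaled. Of 9 ratios, which were chosen with earlier results of these data known, all 9 were without overlap between the groups, and so were 73.6% of the single genes tested. The exact permutation test, two-sided, gave p = 0.1 for each, the smallest value that 3 against 3 libraries allow, and 0.1 after adjustment over the 9, so no ratio could pass 0.05. CALCOCO1 over CALCOCO2 had the largest shift, from 0.238, 0.295 and 0.338 to 2.55, 2.20 and 2.48, and GABARAPL1 over GABARAPL2 went from 0.256, 0.251 and 0.238 to 1.45, 1.70 and 1.60. In both pairs only the numerator had passed the test.

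ATG16L1 over ATG16L2 moved down, from 15.1, 32.9 and 20.3 to 3.15, 4.12 and 3.86, with both genes contributing. BNIP3 over BNIP3L went from 0.732, 0.810 and 0.761 to 0.257, 0.309 and 0.279, so BNIP3 lost more than its paralogue did. ULK1 over ULK2 rose 2.97-fold, WIPI1 over WIPI2 3.02-fold, ATG2A over ATG2B 1.94-fold and DRAM1 over DRAM2 1.51-fold, and MAP1LC3B over GABARAP fell 1.91-fold.

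**Figure D4:**
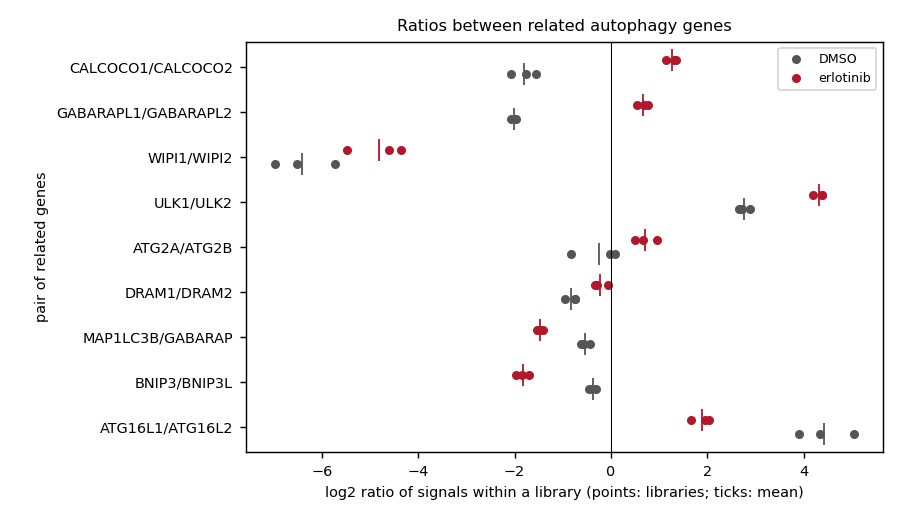
Log2 ratio of the signals of 9 pairs of related autophagy genes within each library, with points for the 3 DMSO and 3 erlotinib libraries and ticks for the group means. The groups are apart in every pair, most for CALCOCO1 over CALCOCO2, with a difference of 3.06 log2 units, and least for DRAM1 over DRAM2, with 0.59.

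Further genes of the pathway were read from 5 lists of 63 genes in all, also chosen with earlier results of these data known. Of the 58 that were tested, 29 rose, 13 fell and 16 did not pass, and their median log2 change was 0.19. The share that passed, 72.4%, lay near the 70.7% of all genes tested, with 50% higher and 22.4% lower beside 35.3% and 35.4%. RUBCNL, PLEKHM1, RETREG1 and ZKSCAN3 were among those that did not reach the filter. Among the other core factors, 6 of 11 tested rose and 2 fell. The rise reached 1 log2 unit in 5, or 45.5%, beside 17.0% of all genes tested, and no fall did, beside 10.8%. TP53INP1, which binds LC3 and takes part in p53-dependent stress responses, had 222, 220.1 and 220.5 in DMSO and 3478, 3517 and 3594 in erlotinib (log2 fold change 3.99, SE 0.08, limma adjusted p = 7.8e-19). TP53INP2, or DOR, which carries LC3 out of the nucleus, had 182, 173 and 177 in DMSO and 1725, 1824 and 1854 in erlotinib (log2 fold change 3.34, SE 0.10, limma adjusted p = 7.8e-17). The means rose 16.0-fold and 10.2-fold with hardly any spread.

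ATG9B, the paralogue of ATG9A, went from 46.5, 31.6 and 40.7 to 662, 521 and 527 (log2 fold change 3.82, SE 0.18, limma adjusted p = 1.3e-13), while ATG9A itself did not pass. MAP1LC3C, an LC3 that works in the clearance of bacteria, was scarce in DMSO, with 6.81, 22.3 and 10.7, and had 238, 154 and 190.0 in erlotinib (log2 fold change 3.90, SE 0.34, limma adjusted p = 2.5e-09). WDR45, a PI3P reader of the WIPI family also called WIPI4, had 86.2, 102 and 99.5 in DMSO and 329, 391 and 373 in erlotinib (log2 fold change 1.91, SE 0.15, limma adjusted p = 5.3e-10). An intronless copy of WDR45 with 96.1% identity lies on chromosome 4. WDR45B, from the same list and picked after its values were seen, went the other way. It had 3121, 3003 and 3070 in DMSO and 2002, 2013 and 1903 in erlotinib (log2 fold change -0.64, SE 0.07, limma adjusted p = 4.6e-08).

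In the list for fusion with the lysosome, 5 of 12 tested were higher, 2 lower and 5 neither, and none of them passed 1 log2 unit. That is 41.7% higher and 16.7% lower, beside 35.3% and 35.4% of all genes tested. VPS39, a subunit of the HOPS tethering complex, had the largest rise of it (log2 fold change 0.80, SE 0.08, limma adjusted p = 1.8e-08), and YKT6, a SNARE of the autophagosome, the largest fall (log2 fold change -0.56, SE 0.07, limma adjusted p = 3.8e-07); both were picked after their values were seen. PLEKHM1 was listed at 0 throughout, and sequences of 100% and 99.8% identity to it lie on alternate contigs of the genome. Of the organelle-selective receptors and adaptors, 10 of 14 rose, or 71.4%, and 2 fell, or 14.3%, beside 35.3% and 35.4% of all genes tested. Without erlotinib library 5, 7 were higher. STBD1, which tethers glycogen to autophagosomes, had 153, 137 and 137 in DMSO and 453, 463 and 475 in erlotinib (log2 fold change 1.70, SE 0.13, limma adjusted p = 2.8e-10), and CCPG1, a receptor for endoplasmic reticulum, had 127, 134 and 136 in DMSO and 419, 368 and 339 in erlotinib (log2 fold change 1.49, SE 0.14, limma adjusted p = 7.9e-09). Both were higher in every erlotinib library than in any DMSO library.

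Among the upstream regulators, 15 genes for mTORC1 and AMPK, 5 rose, 6 fell and 4 did not pass, with a median log2 fold change of -0.11. Their shares of 33.3% higher and 40% lower lay near those of all genes tested, 35.3% and 35.4%. DEPTOR, an inhibitory subunit of mTOR complexes, had 43.1, 31.6 and 37.5 in DMSO and 339, 282 and 344 in erlotinib (log2 fold change 3.08, SE 0.20, limma adjusted p = 1.4e-11). PRKAB1, a regulatory subunit of AMPK, had 1159, 1153 and 1135 in DMSO and 3074, 3044 and 3232 in erlotinib (log2 fold change 1.44, SE 0.07, limma adjusted p = 2.3e-13). Those were the only genes of the list past 1 log2 unit in the test used here. The 6 that fell stayed below that size, PRKAG2 falling the most (log2 fold change -0.85, SE 0.09, limma adjusted p = 1.9e-08).

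Of the transcription factors and their regulator FLCN, 3 of 6 tested rose and 1 fell, and the 66.7% called are close to the 70.7% of all genes tested. TFEB, the best known activator of lysosome and autophagy genes, was scarce at 7.94, 11.1 and 16.1 in DMSO and 43.4, 18.8 and 31.8 in erlotinib, and its call (log2 fold change 1.32, SE 0.46, limma adjusted p = 0.015) was lost without erlotinib library 4 (limma adjusted p = 0.11) or without erlotinib library 6 (limma adjusted p = 0.054). Its relative MITF fell, from 4045, 4418 and 3736 to 1889.9, 1971 and 1838 (log2 fold change -1.09, SE 0.07, limma adjusted p = 3.4e-11). TFE3, the third of these factors, did not pass (log2 fold change -0.0041, SE 0.08, limma adjusted p = 0.97).

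**Figure D5:**
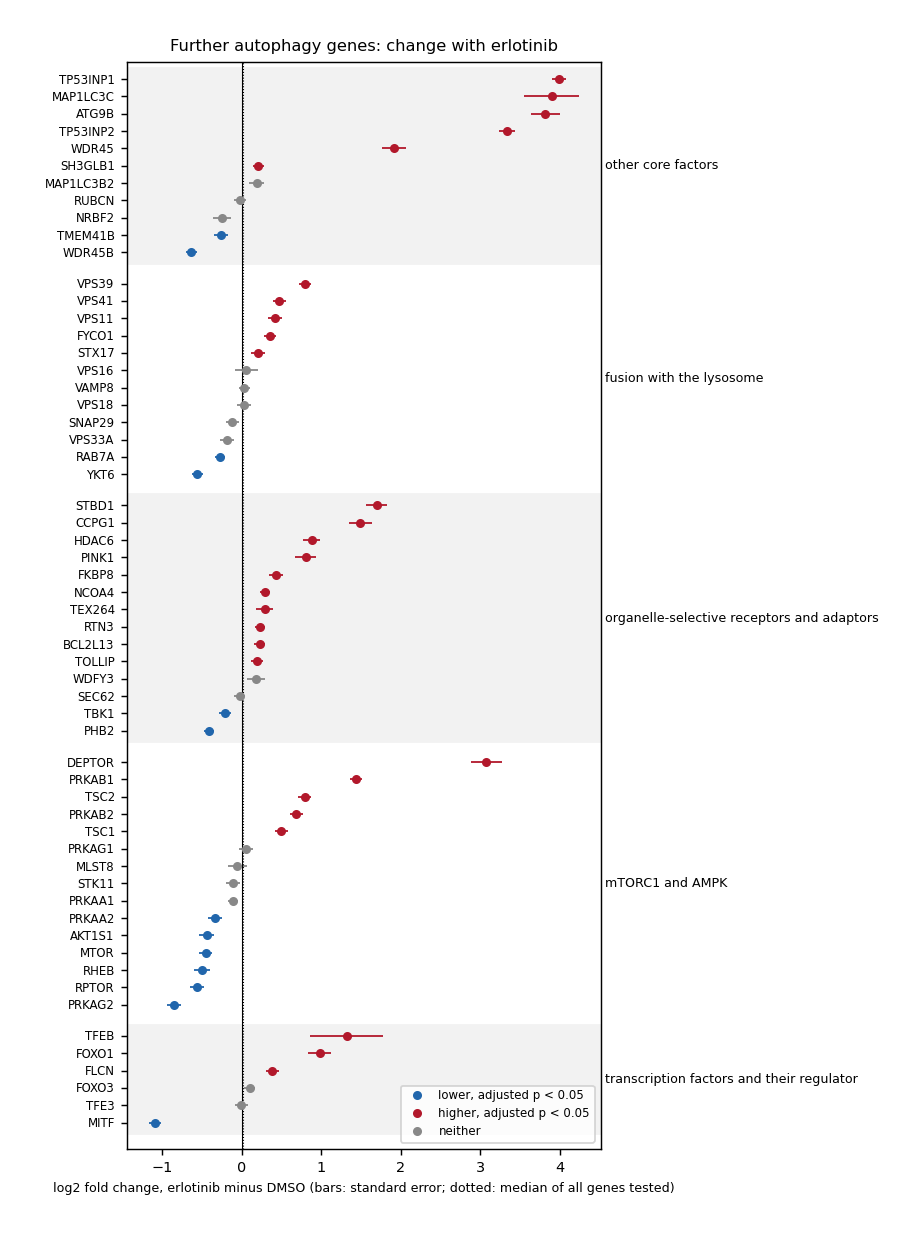
Log2 fold change (erlotinib minus DMSO, on log2(signal + 1)) of the 58 further pathway genes tested, in 5 lists, with bars for the standard error and the median of all genes tested as a dotted line. TP53INP1, MAP1LC3C, ATG9B and TP53INP2 stand out on the right, between 3.34 and 3.99, and MITF is lowest at -1.09.

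The promoters of the members were searched for the DNA words of factors that are known to act on autophagy genes. RefSeq gave a promoter of 250 bases before to 50 after the start on GRCh38.p14 for 39 of the 46 genes, and both strands were read. The other 7 were not searched. They were RB1CC1, UVRAG, ATG4D, MAP1LC3A, BNIP3L, EPG5 and CALCOCO1, the member with the largest change. The E-box CACGTG, bound by TFEB, TFE3 and MITF among many others, was in 3 of the 39, or 7.69%, beside 7.43% of all 27305 promoters. The longer word GTCACGTG, which contains that E-box, was in 2 of the 39, or 5.13%, beside 2.53%. The forkhead word TGTTTAC, bound by FOXO proteins, was in 1, beside 3.41% of all promoters, and the cAMP response element TGACGTCA was in 1, beside 1.98%. These shares rest on 1 to 3 genes, and a match is a description of the letters.

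The matches are shown with up to 40 bases on either side, 5′ to 3′ on the gene's strand, with the match in capitals. ATG14 and ATG3 carry the longer word, in ATG14 as its reverse complement, with its first base at -21 and -20 from the start, at chr14:55411831-55411891, minus strand, and chr3:112561963-112562022, minus strand. A further match of the longer word in ATG3 begins at base 3 after the start and is not shown. BNIP3 carries the E-box alone, with its first base at -134, at chr10:131982012-131982097, minus strand. CALCOCO2 carries the forkhead word as its reverse complement, at chr17:48830785-48830855, plus strand, and GABARAPL1 the cAMP response element, at chr12:10212807-10212876, plus strand.
ATG14: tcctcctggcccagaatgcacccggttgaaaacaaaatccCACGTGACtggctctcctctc
ATG3: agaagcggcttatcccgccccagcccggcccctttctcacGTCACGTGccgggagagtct
BNIP3: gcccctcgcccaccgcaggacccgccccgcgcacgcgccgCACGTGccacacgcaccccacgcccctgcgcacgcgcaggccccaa
CALCOCO2: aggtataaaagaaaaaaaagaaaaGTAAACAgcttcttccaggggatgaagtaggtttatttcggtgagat
GABARAPL1: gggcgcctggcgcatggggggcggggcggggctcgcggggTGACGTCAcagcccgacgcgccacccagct

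The 3 genes with an E-box moved in different directions, ATG14 up by 1.05 log2 units and ATG3 and BNIP3 down, at -0.96 and -1.86. GABARAPL1, with the cAMP response element, was among the strongest rises, and CALCOCO2, with the forkhead word, did not pass the test. No binding was measured in these libraries.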

How the data were processed

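Total RNA of HCC827 cells was enriched for polyadenylated RNA and sequenced in paired ends. According to the study's methods and the submitters' processing notes, the authors mapped reads with Bowtie2 2.3.4 to GRCh38, counted the unique ones by gene using featureCounts 1.6.3 and tested with DESeq2 1.18.1. Bowtie2 does not split a read over an intron, so reads across splice sites are lost or clipped. The strand setting was not given in the sources used here. The table is described as raw counts, but the deposited values are signal, read counts divided by 1 size factor for each library (0.882 to 1.08): all 100% of the values came out as whole reads within a tolerance of 0.01. Of its genes, 475 had no symbol.

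The test was limma 3.58.1 (R 4.3.3, trend, two-sided) on log2(signal + 1) for genes whose signal averaged 10 or more, at a Benjamini-Hochberg threshold of 0.05. Fold changes on this scale understate those of scarce genes. On simulated data of 14215 genes it recovered 195 of 200 changed genes, with 10 false calls. In the libraries 70.7% of all genes tested were called, and recovery at that share was not tested. edgeR 4.0.16 on the recovered reads called 5085 genes higher and 4941 lower, and DESeq2 1.42.0 was a further alternative. Copies in the genome were searched with minimap2 2.31-r1302, and levels per kilobase use canonical transcripts of GENCODE. Gene positions and promoters are from RefSeq on GRCh38.p14. The 46 genes, their roles, the ratios and the further lists were chosen with earlier results of these data known. All members could be named, with values in every library for those with the largest changes in each role group, the ATG8 family, the soluble receptors and the paralogues of a ratio. Further genes were named from an absolute log2 fold change of 1. Those named below it or without a test, and copies or neighbours of members, were picked after their values were seen, and 1 gene of these lists is not reported here. Libraries held 20760204 to 24641819 reads, and a count of 0 allows up to 3.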

Additional observations from a re-analysis of the deposited data

How the results depend on the processing

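Of the 35 members called, 31 kept their call under all 15 alternatives, 4 lost it under some (PIK3R4, ATG5, TAX1BP1 and FUNDC1), and 0 changed sign. Scaling to the total count moved the most: the members' median log2 fold change became 0.44, the count of the class III PI3-kinase complex lower became 0, the counts higher became 2 for the ATG4 proteases and 2 for the tethers, and the counts lower became 1 each for the other core factors, the fusion list and the organelle-selective receptors. At an adjusted p under 0.01, the other core factors and the organelle-selective receptors had 1 lower each. Leaving out 1 library at a time gave 1 to 2 ATG4 proteases higher, 2 without DMSO library 1, and 1 to 2 organelle-selective receptors lower, 1 without erlotinib library 5. It gave 23 to 24 members higher and 10 to 12 lower.

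Members with changes near 0 had no fixed sign. The log2 fold change of BECN1 was 0.016 with TMM factors, 0.18 with total counts, 0.025 with edgeR, 0.017 with DESeq2, 0.00011 with a pseudocount of 10 and -0.12 to 0.058 without 1 library. That of GABARAPL2 was 0.012 with TMM factors, 0.18 with total counts, 0.013 with edgeR, 0.0040 with DESeq2 and -0.063 to 0.064 without 1 library. ATG2B was at 0.10 and UVRAG at 0.021 with total counts, ATG2B at -0.16 to 0.049 and CALCOCO2 at -0.058 to 0.079 without 1 library. With total counts ATG9A, ATG4D, EPG5 and CALCOCO2 were also called higher, and without DMSO library 1 ATG12 was called lower and ATG4D higher. The cause of these shifts was not tested. Adding the signal of the near-identical copies, an alternative chosen after seeing the data, moved no call of a member.

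No paired analysis was possible because the erlotinib columns are numbered 4 to 6 while the labels number the samples of both groups 1 to 3, and the sources used here do not say which erlotinib column is which numbered sample. The standard errors of the scarce genes TFEB and WIPI1 were large, at 0.46 and 0.31 log2 units. limma draws each gene's spread towards a trend with mean signal, so low signal enters these standard errors by construction. The part of depth beyond that was not tested.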

Other observations

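PINK1, a kinase that accumulates on damaged mitochondria, had a signal of 420, 271 and 375 in DMSO and 607, 635 and 595 in erlotinib (log2 fold change 0.81, SE 0.13, limma adjusted p = 1.7e-05). HDAC6, which carries ubiquitinated aggregates towards the autophagosome, had 357, 358 and 438 in DMSO and 709, 741 and 666 in erlotinib (log2 fold change 0.88, SE 0.11, limma adjusted p = 4.2e-07). FOXO1, a transcription factor of autophagy genes, had 160.0, 176 and 158 in DMSO and 283, 317 and 385 in erlotinib (log2 fold change 0.98, SE 0.15, limma adjusted p = 5.0e-06). These 3 genes were picked after their values were seen. In each of them the erlotinib libraries lay above the DMSO libraries. Other further genes below 1 log2 unit fell, such as PRKAG2 and RPTOR, with log2 fold changes of -0.85 and -0.57 (limma adjusted p = 1.9e-08 and 9e-06).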
